A study of Mus musculus with 20 samples.

Results

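Aminoacyl-tRNA synthetases are the enzymes that attach each amino acid to its own tRNA, and so supply the ribosome with charged tRNA. The set described here holds every row of the deposited expression table whose gene symbol has the form of a one-letter amino acid code followed by ars, ars1 or ars2, or is Eprs. Lars2 was left out because its signal behaves like ribosomal RNA (1204 to 4509 TPM over the libraries). The rule gives 34 genes of 55493 rows in the table, and the 33 described here comprise 18 cytosolic synthetases and 15 mitochondrial ones, whose symbols end in 2. Phenylalanine's cytosolic enzyme, made from the Farsa and Farsb subunits, and the threonine copy Tarsl2 do not match the pattern and are not among them.

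RNA was sequenced from whole liver of female C57BL/6N mice aged 15 weeks, in 4 groups of 5 libraries. The groups were Plin2-/- mice fasted for 24 h, Plin2-/- mice on chow, Plin2+/+ mice fasted for 24 h and Plin2+/+ mice on chow. Plin2 encodes perilipin 2, the main coat protein of hepatocyte lipid droplets, and the study examined droplets and lipid metabolism in its absence. The labels of 10 libraries give the feeding state without a genotype. They are read as Plin2-/- (below, Plin2-null) because the study names 2 genotypes and the other 10 are labelled Plin2+/+. Plin2 ran from 75.1 to 130 CPM in fasted and 15.3 to 32.1 CPM in fed libraries read as null, against 1090 to 1700 CPM in fasted and 196 to 319 CPM in fed Plin2+/+ libraries. Neither the deletion's design nor any pooling of animals is given in the labels. The labels also do not say that libraries of a group come from separate animals, so each p-value speaks only of spread among libraries. Replicate numbers below follow the order in which the libraries are listed and are not in the labels.

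Libraries held 25506471 to 65579038 counts, and every synthetase was counted at least 61 times in each. CPM below are counts scaled to a common library size by TMM, a factor that aligns the bulk of genes between libraries. TPM are the deposited values, a share of all transcripts that is corrected for gene length, and serve to compare genes with each other. The 7 hepatocyte markers summed to between 83000 and 145000 CPM of library totals in every library, as the liver label implies. Summed markers of some other cells were lower in fasted liver, those of Kupffer cells without overlap in Plin2+/+ liver alone. Those of others overlapped between feeding states. The 8 Kupffer cell markers summed to 250 to 387 CPM in fasted against 339 to 839 CPM in fed Plin2-null liver, and to 217 to 304 CPM in fasted against 428 to 502 CPM in fed Plin2+/+ liver. The 5 cholangiocyte markers summed to 12.7 to 24.5 CPM in fasted against 31.9 to 53.0 CPM in fed Plin2-null liver, and to 10.4 to 21.1 CPM in fasted against 34.2 to 55.9 CPM in fed Plin2+/+ liver. The 8 pancreatic acinar markers, of which 2 were at 0 in all libraries, summed to 3.67 to 5.45 CPM in fasted against 16.8 to 32.1 CPM in fed Plin2-null liver, and to 2.23 to 3.98 CPM in fasted against 8.29 to 21.1 CPM in fed Plin2+/+ liver. The 6 sinusoidal endothelial markers overlapped between feeding states, at 227 to 386 CPM in fasted and 294 to 387 CPM in fed Plin2-null liver, and 292 to 404 CPM in fasted and 322 to 398 CPM in fed Plin2+/+ liver. The sums of 6 stellate cell markers also overlapped, and those of 6 lymphocyte markers did in Plin2-null liver alone (in Plin2+/+ liver 3.18 to 4.78 CPM fasted and 5.76 to 11.9 CPM fed). The 6 neutrophil and monocyte markers leaned the other way in Plin2-null liver, at 5.48 to 8.75 CPM in fasted against 2.99 to 6.54 CPM in fed mice, and overlapped in both genotypes. Their part in the results below was not tested, and in bulk tissue fewer cells of a type and less RNA per cell cannot be told apart.

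Each synthetase activates its amino acid with ATP and then loads it onto the matching tRNA. The cytosol and the mitochondrial matrix run separate translation systems, and for most amino acids a different nuclear gene serves each. Gars and Kars are exceptions that encode both forms from 1 gene, and Eprs is a fused enzyme that charges glutamate and proline. In mammals 8 of the cytosolic enzymes, Dars, Eprs, Iars, Kars, Lars, Mars1, Qars and Rars, sit together in the multi-synthetase complex. The other cytosolic enzymes described here lie outside that complex and are called free below. Several cytosolic synthetase genes are known targets of ATF4, the transcription factor of the amino acid and eIF2 stress response. ATF4 binds with C/EBP partners at the CARE element, whose core was searched here as TGATGNAA on both strands.

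Promoters of 24 of the 33 synthetases were in the RefSeq table for GRCm38.p6, each reaching from 250 bases before the start to 50 after it. The CARE letters stood in 5 of 11 cytosolic genes with a promoter (45.5%) and in 0 of 13 mitochondrial genes, against 4.51% of 27025 genes in the table. For each of the 5 genes 1 window that holds the letters is shown, since the choice of members did not use the promoter. The other 6 cytosolic genes with a promoter lack the letters, as the mitochondrial ones do, and the difference between the classes was not tested. The windows are written 5′ to 3′ in the direction of the gene, with the match in capitals.
Aars, chr8:111033840-111033869, plus strand: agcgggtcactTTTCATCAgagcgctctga
Gars, chr6:55037960-55037989, plus strand: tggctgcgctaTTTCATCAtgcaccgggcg
Iars, chr13:49682126-49682155, plus strand: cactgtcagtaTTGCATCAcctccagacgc
Tars, chr15:11399655-11399684, minus strand: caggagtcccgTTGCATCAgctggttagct
Yars, chr4:129189895-129189924, plus strand: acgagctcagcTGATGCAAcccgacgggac
The Aars promoter holds 2 matches, and the one shown began 9 bases after its start. Those of Gars and Tars began 30 and 15 bases before the start, and those of Iars and Yars began 7 and 3 bases after it. The window of Yars carries the letters in the forward orientation and the other windows shown carry the reverse complement. The binding motif of NRF1, a regulator of nuclear genes for mitochondria, was searched on both strands and stood in 2 of 11 cytosolic and 2 of 13 mitochondrial genes, against 5.19% of all genes. The E-box CACGTG, the site of MYC and its relatives, stood in 3 of 11 cytosolic and 1 of 13 mitochondrial genes, against 8.09% of all genes. A match describes the letters and is no evidence that a factor binds there.

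Cytosolic synthetase transcripts stood above mitochondrial ones. The median TPM over the 20 libraries ran from 7.59 for Cars to 64.1 for Nars among the cytosolic genes, with a middle value of 24.2 TPM. It ran from 1.63 for Mars2 to 15.2 for Iars2 among the mitochondrial genes, with a middle value of 5.16 TPM. By these medians 14 of the 18 cytosolic genes lay above every mitochondrial gene, and Yars, Wars, Vars and Cars lay among the mitochondrial ones. Conversely 11 of the 15 mitochondrial genes lay below every cytosolic gene, the exceptions being Iars2, Hars2, Rars2 and Tars2. The order fell gradually, since the library ranges of all 32 pairs of neighbours in it overlapped.

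Nars, the asparagine enzyme, was the most abundant, at 63.4, 58.8, 45.0, 63.4 and 60.2 TPM in fasted and 74.8, 72.4, 57.0, 64.9 and 74.7 TPM in fed Plin2-null liver. Its Plin2+/+ libraries held 72.3, 56.7, 61.2, 58.2 and 69.9 TPM fasted and 86.6, 75.7, 54.3, 73.6 and 73.8 TPM fed. Fasted and fed libraries overlapped in both genotypes. Tars (61.3 TPM), Aars (51.1 TPM) and Dars (41.8 TPM) followed, the enzymes for threonine, alanine and aspartate. Iars2, the mitochondrial isoleucine enzyme, measured 14.6, 15.2, 11.6, 14.7 and 16.4 TPM in fasted and 15.1, 16.5, 14.9, 15.8 and 17.3 TPM in fed Plin2-null liver. Its Plin2+/+ libraries held 19.2, 15.2, 14.0, 16.0 and 15.1 TPM fasted and 18.0, 15.0, 13.8, 15.9 and 16.9 TPM fed. The 4 groups of Iars2 overlapped. Cars stood at the foot of the cytosolic order. Cars held 5.91, 4.85, 4.80, 5.58 and 5.52 TPM in fasted and 11.3, 15.4, 9.56, 11.0 and 12.1 TPM in fed Plin2-null liver. In Plin2+/+ liver Cars held 5.44, 4.19, 4.74, 4.79 and 6.11 TPM fasted and 10.7, 11.2, 9.06, 11.6 and 15.1 TPM fed. Every fasted library of Cars was below every fed one of either genotype. Mars2, the mitochondrial methionine enzyme and the least abundant, lay between 1.37 and 2.22 TPM in fasted and 1.14 and 1.86 TPM in fed Plin2-null liver, and between 1.58 and 2.43 TPM in fasted and 1.07 and 2.13 TPM in fed Plin2+/+ liver.

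**Figure D1:**
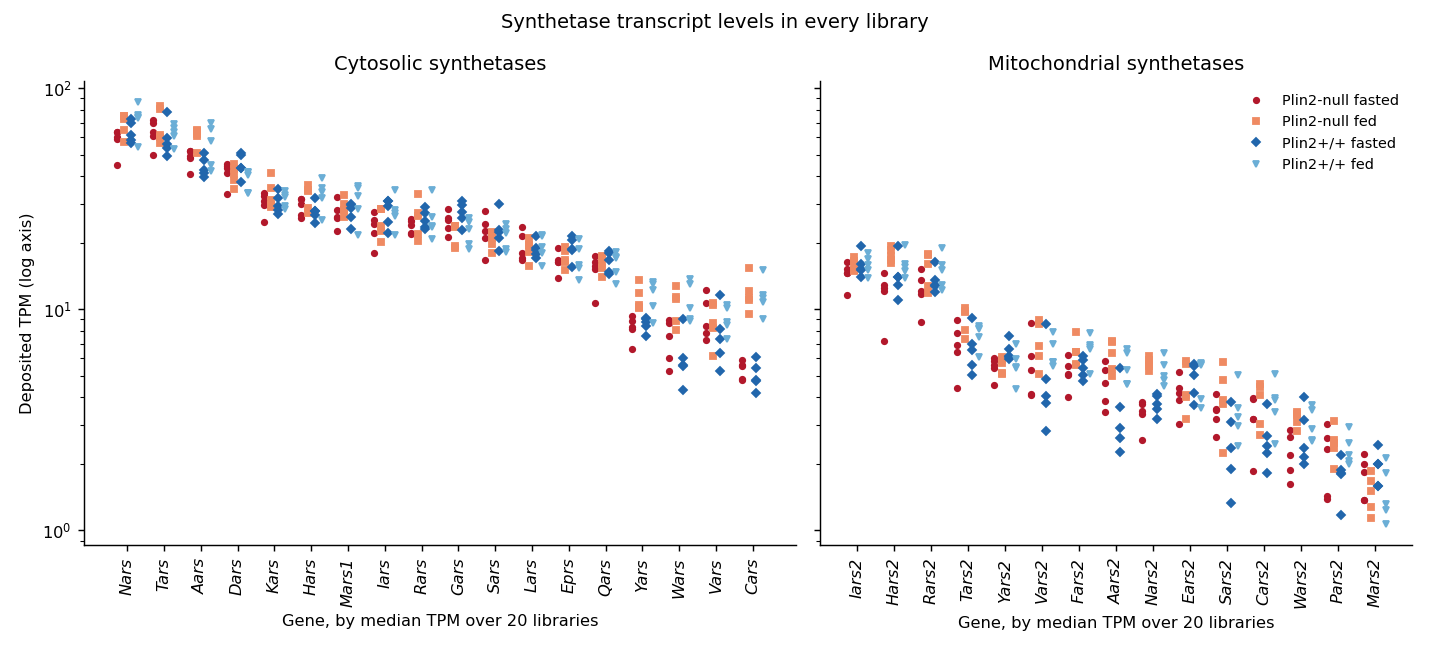
Deposited TPM of each synthetase in each of the 20 libraries on a log axis, cytosolic genes at left and mitochondrial genes at right, each ordered by median TPM; symbols mark the 4 groups. Most cytosolic genes lie above the mitochondrial ones, and the fasted points of Cars form a cluster below its fed points.

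Summed over the class, cytosolic synthetases held 473.5 ± 52.9 TPM in fasted and 520.6 ± 48.4 TPM in fed Plin2-null liver, and 483.5 ± 47.3 TPM in fasted and 517.5 ± 63.4 TPM in fed Plin2+/+ liver (mean ± SD, n = 5 each). Mitochondrial synthetases held 86.8 ± 14.8 TPM in fasted and 108.5 ± 6.87 TPM in fed Plin2-null liver, and 90.6 ± 10.7 TPM in fasted and 102.9 ± 11.2 TPM in fed Plin2+/+ liver. The ratio of the 2 sums, which no scaling of a library can move, was 5.61, 5.44, 6.10, 4.98 and 5.41 in fasted and 5.03, 4.95, 4.59, 4.69 and 4.72 in fed Plin2-null liver. In Plin2+/+ liver it was 4.88, 5.45, 5.93, 5.09 and 5.45 fasted and 5.04, 5.10, 4.87, 4.92 and 5.16 fed. The groups overlapped in both genotypes: fasted replicate 4 fell within the fed range in Plin2-null liver, and fasted replicates 1 and 4 did in Plin2+/+ liver.

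Fasting was set against feeding in each genotype with edgeR's quasi-likelihood test, with p-values adjusted by the Benjamini-Hochberg method over 16312 genes and a call at an adjusted p under 0.05. In Plin2-null liver 5 of 33 were called higher and 3 lower in fasted mice, against 18.0% of all genes tested called higher and 18.1% lower (36.1% in either direction). In Plin2+/+ liver 6 were called higher and 4 lower, against 20.9% of all genes higher and 21.7% lower (42.6% in either direction). The median size of the log2 fold change, regardless of sign, was 0.19 over the synthetases and 0.35 over all genes in Plin2-null liver, and 0.17 and 0.39 in Plin2+/+ liver. The shares called are near or below the background, so the counts alone show no response particular to the set. Dars, Gars and Mars2 were called higher in both genotypes and Cars and Nars2 lower in both; 20 of the 33 were called in neither, which does not show that they were unchanged.

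By class, 4 of 18 cytosolic genes were called higher and 1 lower in fasted Plin2-null liver, with a median log2 fold change of 0.19, and 1 of 15 mitochondrial genes was called higher and 2 lower, with a median of −0.02. In Plin2+/+ liver 4 cytosolic genes were called higher and 2 lower (median 0.09), and 2 mitochondrial genes higher and 2 lower (median −0.06). These signs depend on scaling. With library size alone, the median of all genes moved to −0.21 in Plin2-null and −0.16 in Plin2+/+ liver and the cytosolic median to −0.04 and −0.07. Under that scaling all genes split into 1376 called higher and 4243 lower in Plin2-null liver, and 1854 and 4173 in Plin2+/+ liver, where TMM gave 2942 and 2954, and 3416 and 3541. Relative to the median of all genes, the cytosolic median stood 0.10 to 0.20 higher in Plin2-null and 0.04 to 0.10 higher in Plin2+/+ liver over the main and 11 other settings. The gap between the cytosolic and mitochondrial medians was 0.13 to 0.21 in Plin2-null and 0.12 to 0.16 in Plin2+/+ liver over the same settings. The Plin2-null cytosolic median was 0.11 without fasted replicate 3, and the mitochondrial one 0.04 without fed replicate 2 and 0.02 with the share of counts in Lars2 as a covariate.

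**Figure D2:**
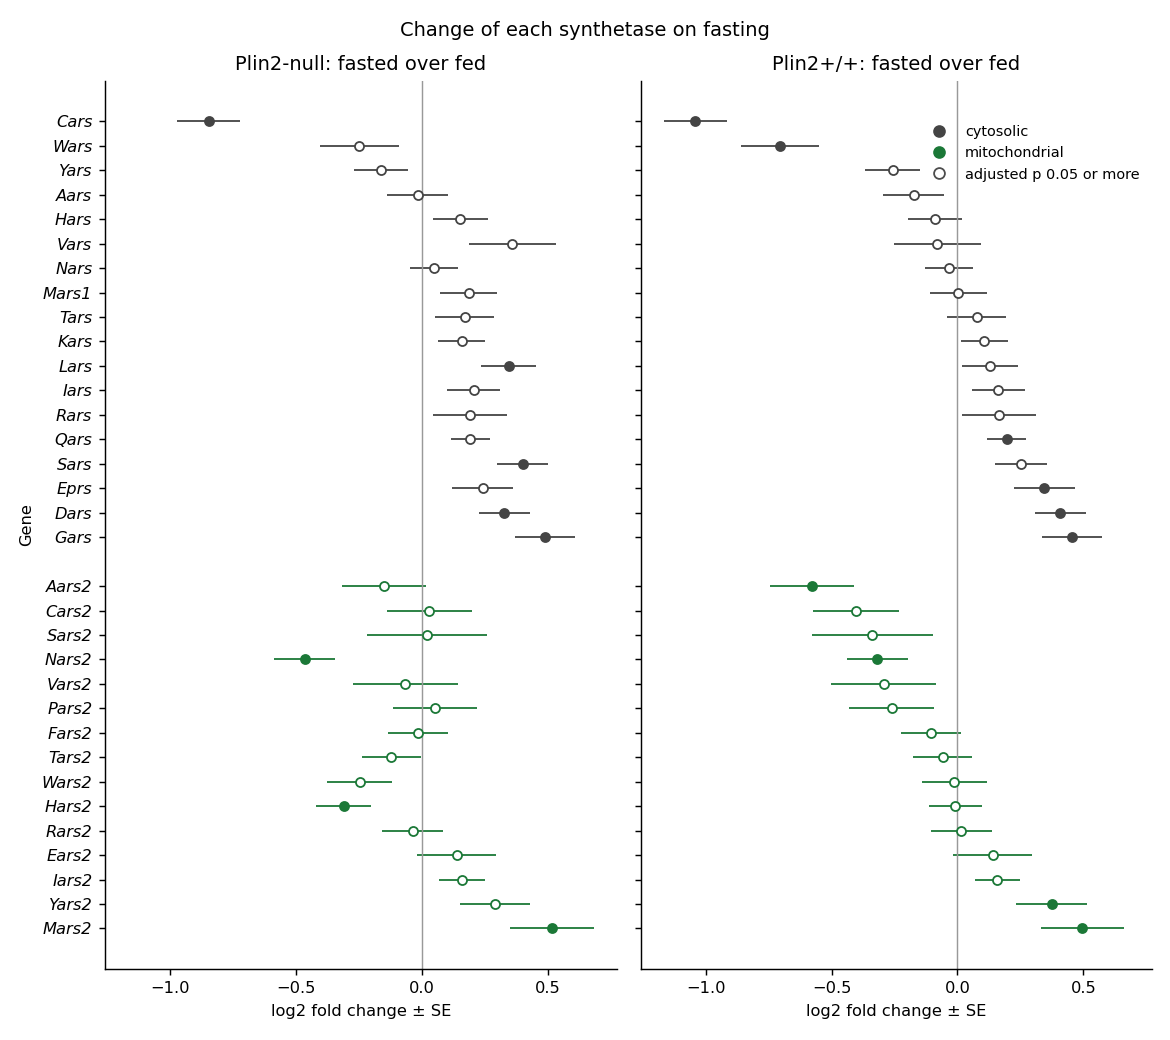
log2 fold change (fasted over fed) ± SE of each synthetase in Plin2-null liver at left and Plin2+/+ liver at right, cytosolic genes above and mitochondrial genes below; filled points have an adjusted p under 0.05. Cars stands apart at −0.85 and −1.04, and most other genes lie within 0.5 of 0.

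Cars, the cysteine enzyme (chr7:143557230-143600090, minus strand), fell most. It measured 16.2, 14.4, 19.2, 13.3 and 13.9 CPM in fasted and 27.2, 34.2, 23.2, 25.3 and 28.6 CPM in fed Plin2-null liver. The Plin2+/+ libraries held 12.9, 13.6, 14.3, 14.2 and 15.0 CPM fasted and 25.1, 28.5, 25.1, 28.1 and 37.2 CPM fed. The fasted and fed libraries did not overlap in either genotype. The log2 fold change was −0.85 ± 0.13 (SE) in Plin2-null liver (adjusted p = 1.6e-05) and −1.04 ± 0.13 in Plin2+/+ liver (adjusted p = 8.91e-07). Both calls held in all 11 other settings and without any 1 library.

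Wars, the tryptophan enzyme, is known as an interferon-inducible gene. It held 10.8, 9.35, 11.0, 11.2 and 11.5 CPM in fasted and 16.1, 13.1, 11.2, 9.67 and 14.0 CPM in fed Plin2-null liver. Levels in Plin2+/+ liver were 6.94, 7.36, 9.47, 8.57 and 11.7 CPM fasted and 15.9, 18.4, 13.1, 11.3 and 13.0 CPM fed. The groups overlapped in both genotypes, in Plin2+/+ liver through fasted replicate 5 and fed replicate 4 alone. Wars fell in Plin2+/+ liver (−0.71 ± 0.16, adjusted p = 9.54e-04) in all 11 other settings, while the Plin2-null value of −0.25 ± 0.16 did not pass the test (adjusted p = 0.223). Of 15 interferon response genes, 13 fell in Plin2-null and 14 in Plin2+/+ liver and none rose, against 18.1% and 21.7% of all genes called lower. The counts were the same under library size alone, where 4243 and 4173 of 16312 genes were called lower. The transcription factors Irf1 (−0.87 in Plin2-null and −1.11 in Plin2+/+ liver) and Irf7 (−1.22 in Plin2-null and −1.69 in Plin2+/+ liver) were among the interferon genes that fell. Whether these bear on Wars was not tested.

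Rises among cytosolic synthetases were smaller, and all of them lost the call with library size alone or on the TPM scale. Gars, the glycine enzyme (chr6:55038007-55079500, plus strand), measured 33.5, 35.8, 40.3, 26.5 and 34.2 CPM in fasted and 22.2, 25.1, 21.8, 25.8 and 26.2 CPM in fed Plin2-null liver. In Plin2+/+ liver it measured 33.2, 42.3, 43.9, 32.0 and 30.3 CPM fasted and 28.7, 23.8, 24.6, 26.6 and 28.9 CPM fed. Fasted and fed libraries did not overlap in either genotype, by a narrow margin in Plin2-null liver. Gars rose by 0.49 ± 0.12 on the log2 scale in Plin2-null liver (adjusted p = 0.00257) and by 0.46 ± 0.12 in Plin2+/+ liver (adjusted p = 0.00363), and both calls held without any 1 library. With library size alone the values were 0.26 (adjusted p = 0.0822) and 0.28 (adjusted p = 0.0578).

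Dars, the aspartate enzyme of the multi-synthetase complex (chr1:128363707-128417368, minus strand), measured 78.7, 81.4, 88.1, 70.8 and 75.6 CPM in fasted and 65.5, 67.0, 56.4, 65.5 and 60.0 CPM in fed Plin2-null liver. Its Plin2+/+ libraries held 68.5, 93.4, 102, 73.8 and 81.1 CPM fasted and 64.6, 56.5, 61.6, 67.1 and 65.7 CPM fed. Again no fasted library fell within the fed range. Dars rose by 0.33 ± 0.10 in Plin2-null liver (adjusted p = 0.0147) and by 0.41 ± 0.10 in Plin2+/+ liver (adjusted p = 0.00258). Without fasted replicate 3 the Plin2-null value was 0.27 (adjusted p = 0.062). It was 0.10 with library size alone (adjusted p = 0.467), where the Plin2+/+ value was 0.23 (adjusted p = 0.0809).

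Sars, the serine enzyme, and Lars, the leucine enzyme, were called in Plin2-null liver. Sars measured 48.1, 48.6, 52.5, 52.2 and 47.9 CPM in fasted and 41.6, 36.7, 37.3, 32.3 and 41.0 CPM in fed Plin2-null liver, without overlap. In Plin2+/+ liver Sars measured 41.3, 46.5, 53.7, 48.6 and 57.5 CPM fasted and 40.4, 48.5, 40.3, 34.5 and 44.1 CPM fed, with overlap. Sars rose by 0.40 ± 0.10 in Plin2-null liver (adjusted p = 0.00388), and its Plin2+/+ value of 0.25 ± 0.10 had an adjusted p of 0.0506. With library size alone the Plin2-null value was 0.19 (adjusted p = 0.272). With the GC trend removed Sars passed in Plin2+/+ liver as well (0.36, adjusted p = 0.00178).

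Lars held 48.0, 43.5, 54.5, 33.2 and 48.5 CPM in fasted and 35.7, 35.5, 31.1, 36.7 and 40.2 CPM in fed Plin2-null liver, fasted replicate 4 lying inside the fed range. The Plin2+/+ libraries held 41.5, 45.1, 46.4, 42.6 and 37.4 CPM fasted and 40.9, 37.5, 35.4, 37.7 and 43.4 CPM fed, which overlapped. Lars rose by 0.35 ± 0.11 in Plin2-null liver (adjusted p = 0.0174), and the Plin2+/+ value was 0.13 ± 0.11. Without fed replicate 3 the Plin2-null value was 0.30 (adjusted p = 0.0535), without fasted replicate 3 it was 0.26 (adjusted p = 0.0863), and with library size alone it was 0.11 (adjusted p = 0.469).

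Eprs and Qars, the glutamine enzyme, were called in Plin2+/+ liver by narrow margins. Eprs held 142, 134, 153, 108 and 116 CPM in fasted and 111, 101, 100, 121 and 119 CPM in fed Plin2-null liver. In Plin2+/+ liver Eprs held 135, 168, 178, 126 and 126 CPM fasted and 133, 108, 103, 126 and 108 CPM fed. Its groups overlapped in both genotypes. Eprs rose by 0.35 ± 0.12 in Plin2+/+ liver (adjusted p = 0.0249), against 0.24 ± 0.12 in Plin2-null liver (adjusted p = 0.122). The Plin2+/+ adjusted p was between 0.0567 and 0.0898 without fed replicate 2, 3 or 5 or fasted replicate 2 or 3, and 0.259 with library size alone. With the GC trend removed Eprs passed in Plin2-null liver as well (0.28, adjusted p = 0.0421).

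Qars held 43.0, 45.2, 42.6, 41.9 and 41.3 CPM in fasted and 40.9, 39.0, 34.1, 36.8 and 36.4 CPM in fed Plin2-null liver. Levels in Plin2+/+ liver were 43.5, 47.0, 50.3, 43.5 and 44.1 CPM fasted and 42.3, 37.6, 35.8, 41.8 and 42.0 CPM fed. No fasted library fell within the fed range in either genotype, though the gaps were narrow. The log2 fold changes were alike, 0.19 ± 0.08 in Plin2-null liver (adjusted p = 0.0575) and 0.20 ± 0.08 in Plin2+/+ liver (adjusted p = 0.0476), on opposite sides of the threshold. The Plin2+/+ call was lost without fed replicate 2, 3 or 4 or fasted replicate 2 or 3, with adjusted p between 0.0668 and 0.131, and was kept in 3 of 11 other settings. With the GC trend removed Qars passed in Plin2-null liver as well (0.19, adjusted p = 0.0422).

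**Figure D3:**
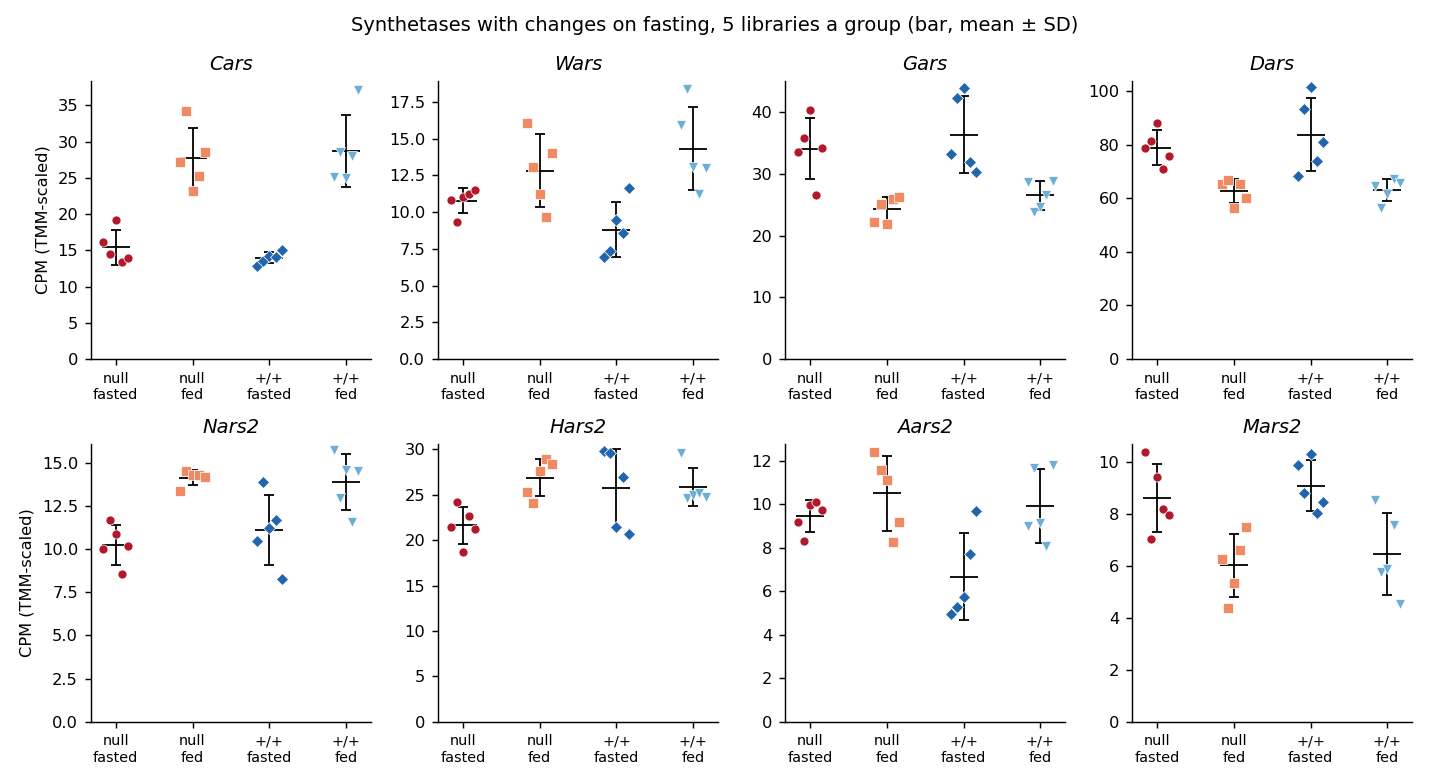
TMM-scaled CPM of 8 synthetases in each library, with fasted left of fed in each genotype and bars for mean ± SD (n = 5 each). On this scale Cars lies lower, and Gars and Dars higher, in every fasted library than in every fed library of the same genotype. On the TPM scale the fasted and fed libraries of Gars and Dars overlap.

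Over the libraries of the 33 genes, 4 were higher in every fasted than in every fed Plin2-null library (Gars, Dars, Sars and Qars) and 2 were lower (Cars and Nars2), against 12.6% and 11.8% of all genes tested. In Plin2+/+ liver 3 were higher (Gars, Dars and Qars) and 1 lower (Cars), against 13.2% and 13.5% of all genes. These separations are of TMM-scaled CPM. In deposited TPM, where the median of all genes was lower in fasted liver, Gars, Dars, Sars and Qars overlapped in both genotypes. Cars and Nars2 did not overlap in either genotype on the TPM scale. The 13 uncalled cytosolic genes of Plin2-null liver had log2 fold changes between −0.25 (Wars) and 0.36 (Vars, the valine enzyme, adjusted p = 0.109). The 12 uncalled ones of Plin2+/+ liver lay between −0.26 (Yars, the tyrosine enzyme, adjusted p = 0.0582) and 0.25 (Sars). Of the 5 genes with CARE letters in the promoter, Gars was called higher in both genotypes, where 18.0% and 20.9% of all genes were. The other 4 were called in neither. In pairs of Plin2-null and then Plin2+/+ liver, the log2 fold changes of those were −0.02 and −0.17 for Aars, 0.21 and 0.16 for Iars, 0.17 and 0.08 for Tars, and −0.16 and −0.26 for Yars. With library size alone Gars was called in neither genotype. Yars was then called lower in both (−0.38, adjusted p = 0.0175, and −0.43, adjusted p = 0.00784). Aars was called lower in Plin2+/+ liver (−0.34, adjusted p = 0.0389). Under that scaling 4243 and 4173 of 16312 genes were called lower.

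The enzymes of the multi-synthetase complex were set apart from the free ones after their values were seen. All 8 had a log2 fold change above 0 in both genotypes under TMM, but 3 of 8 in each genotype had one above 0 with library size alone. Their median was 0.20 in Plin2-null and 0.16 in Plin2+/+ liver under TMM, against −0.01 over all genes in each, and −0.02 in Plin2-null and −0.01 in Plin2+/+ liver with library size alone, against −0.21 and −0.16 over all genes. The test called 2 of the 8 higher in Plin2-null liver (Dars and Lars) and none lower, against 18.0% of all genes higher and 18.1% lower. In Plin2+/+ liver it called 3 of the 8 higher (Dars, Eprs and Qars) and none lower, against 20.9% of all genes higher and 21.7% lower. The values of Mars1, the methionine enzyme, were 0.19 in Plin2-null and 0.00 in Plin2+/+ liver, and those of Rars, the arginine enzyme, were 0.19 in Plin2-null and 0.16 in Plin2+/+ liver. Of the 10 free enzymes, 6 had a value above 0 in Plin2-null liver (median 0.10) and 3 in Plin2+/+ liver (median −0.08). Among the complex's scaffold proteins Aimp1 rose in both genotypes (0.41 ± 0.12, adjusted p = 0.0103, in Plin2-null and 0.59 ± 0.12, adjusted p = 3.78e-04, in Plin2+/+ liver), the second of which was kept with library size alone. Aimp2 (0.23 in Plin2-null and −0.35 in Plin2+/+ liver) and Eef1e1 (0.42 in Plin2-null and 0.45 in Plin2+/+ liver) passed in neither, but with library size alone Aimp2 was called lower in Plin2+/+ liver (−0.51, adjusted p = 0.0334).

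Among mitochondrial synthetases Nars2 fell and Mars2 rose in both genotypes. Nars2, the asparagine enzyme (chr7:96951505-97064758, plus strand), measured 10.0, 11.7, 10.8, 8.52 and 10.2 CPM in fasted and 13.4, 14.5, 14.3, 14.3 and 14.2 CPM in fed Plin2-null liver, without overlap. Its Plin2+/+ libraries held 10.4, 13.9, 11.2, 11.7 and 8.29 CPM fasted and 15.7, 12.9, 14.6, 11.6 and 14.5 CPM fed, with overlap. In TPM, where the median of all genes was also lower in fasted liver, they did not overlap (3.18 to 4.16 fasted and 4.50 to 6.36 fed). Nars2 fell by 0.47 ± 0.12 in Plin2-null liver (adjusted p = 0.00456), and that call held in every setting and without any 1 library. In Plin2+/+ liver it fell by 0.32 ± 0.12 (adjusted p = 0.0369). That call was lost without replicate 1, 3 or 5 of either group (adjusted p 0.0597 to 0.112).

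Aars2, the mitochondrial alanine enzyme, has a GC content of 60%, among the highest of the set. It measured 9.19, 8.32, 9.99, 10.1 and 9.76 CPM in fasted and 12.4, 11.6, 11.1, 8.28 and 9.18 CPM in fed Plin2-null liver. The Plin2+/+ libraries held 4.97, 5.30, 5.72, 7.72 and 9.71 CPM fasted and 8.99, 11.7, 9.16, 8.07 and 11.8 CPM fed. The groups overlapped in both genotypes, and fasted Plin2+/+ libraries were widely spread. Aars2 fell by 0.58 ± 0.17 in Plin2+/+ liver (adjusted p = 0.00795), while its Plin2-null value of −0.15 ± 0.17 did not pass (adjusted p = 0.507). After each library's trend with GC content was removed, the values were −0.36 in Plin2+/+ liver (adjusted p = 0.00234) and −0.29 in Plin2-null liver (adjusted p = 0.0125), so the Plin2-null value then passed as well.

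Hars2, the mitochondrial histidine enzyme, measured 21.4, 24.2, 18.7, 22.6 and 21.2 CPM in fasted and 25.3, 24.1, 27.6, 28.9 and 28.3 CPM in fed Plin2-null liver, fasted replicate 2 lying just inside the fed range. Levels in Plin2+/+ liver were 29.8, 29.6, 21.5, 26.9 and 20.7 CPM fasted and 29.6, 24.7, 25.0, 25.2 and 24.8 CPM fed, which overlapped. Hars2 fell by 0.31 ± 0.11 in Plin2-null liver (adjusted p = 0.0277) and had a value of −0.01 ± 0.11 in Plin2+/+ liver. Without fed replicate 3, 4 or 5 or fasted replicate 3 or 5 the Plin2-null adjusted p was between 0.0526 and 0.0627.

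Mars2 (chr1:55237177-55248470, plus strand) measured 10.4, 7.03, 9.41, 8.20 and 7.96 CPM in fasted and 6.25, 4.36, 5.34, 6.61 and 7.50 CPM in fed Plin2-null liver. In Plin2+/+ liver it measured 9.88, 8.79, 10.3, 8.02 and 8.44 CPM fasted and 8.52, 5.77, 5.88, 7.57 and 4.51 CPM fed. The groups overlapped in both genotypes, through 1 fed library in each. The rise was 0.52 ± 0.17 in Plin2-null liver (adjusted p = 0.0182) and 0.50 ± 0.17 in Plin2+/+ liver (adjusted p = 0.0188). The Plin2-null call was lost without fed replicate 2 (0.42, adjusted p = 0.0567) or fasted replicate 1 (0.44, adjusted p = 0.0558), and the Plin2+/+ call without fed replicate 5 (0.39, adjusted p = 0.0612). With library size alone the values were 0.30 (adjusted p = 0.21) and 0.33 (adjusted p = 0.16).

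Yars2, the mitochondrial tyrosine enzyme, held 5.92, 8.58, 10.4, 6.43 and 7.04 CPM in fasted and 5.87, 6.09, 5.96, 6.69 and 6.68 CPM in fed Plin2-null liver. Its Plin2+/+ libraries held 8.61, 10.3, 8.88, 8.62 and 7.05 CPM fasted and 7.76, 6.69, 5.74, 6.90 and 6.41 CPM fed. Both genotypes showed overlap. Yars2 rose by 0.37 ± 0.14 in Plin2+/+ liver (adjusted p = 0.0346), and the Plin2-null value was 0.29 ± 0.14 (adjusted p = 0.111). The call was lost without fed replicate 2, 3, 4 or 5 or fasted replicate 2 or 3 (adjusted p 0.0535 to 0.117) and with library size alone (adjusted p = 0.25). The other mitochondrial genes, Cars2, Ears2, Fars2, Iars2, Pars2, Rars2, Sars2, Tars2, Vars2 and Wars2, passed in neither genotype. Their log2 fold changes ran from −0.25 (Wars2) to 0.16 (Iars2) in Plin2-null liver and from −0.40 (Cars2, adjusted p = 0.0612) to 0.16 (Iars2) in Plin2+/+ liver.

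For 12 amino acids both a cytosolic and a mitochondrial enzyme are described, and in all 12 the cytosolic one had the higher TPM in every library. The median ratio ran from 1.48 for Vars over Vars2 to 16.7 for Mars1 over Mars2. Such a ratio within a library does not depend on the scaling of libraries, and it is given as a description with no test. The log2 ratio of Nars over Nars2 was higher in every fasted than in every fed Plin2-null library (4.11 ± 0.12 fasted and 3.58 ± 0.19 fed, SD, n = 5 each), while in Plin2+/+ liver the groups overlapped (4.09 ± 0.24 fasted and 3.79 ± 0.23 fed).

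Some other pairs moved toward the mitochondrial enzyme. The log2 ratio of Cars over Cars2 was 0.77 ± 0.35 in fasted and 1.66 ± 0.31 in fed Plin2-null liver, and 1.00 ± 0.19 in fasted and 1.63 ± 0.40 in fed Plin2+/+ liver, with overlap in both. That of Yars over Yars2 was 0.59 ± 0.22 in fasted and 1.01 ± 0.21 in fed Plin2-null liver, which overlapped, and 0.41 ± 0.17 in fasted and 1.03 ± 0.18 in fed Plin2+/+ liver, which did not. Mars1 over Mars2 was lower in fasted mice by 0.34 in Plin2-null and 0.51 in Plin2+/+ liver on average, again with overlap. For Wars over Wars2 the mean difference was −0.685 in Plin2+/+ liver, the largest in that direction there, but 0.02 in Plin2-null liver. Sars over Sars2 had the largest upward difference in Plin2+/+ liver (0.615), against 0.319 in Plin2-null liver. Fasted and fed libraries of both these pairs overlapped in both genotypes. Across the 12 pairs the mean ratio was higher in fasted liver for 9 in Plin2-null mice (median difference 0.17) and for 7 in Plin2+/+ mice (median difference 0.07).

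**Figure D4:**
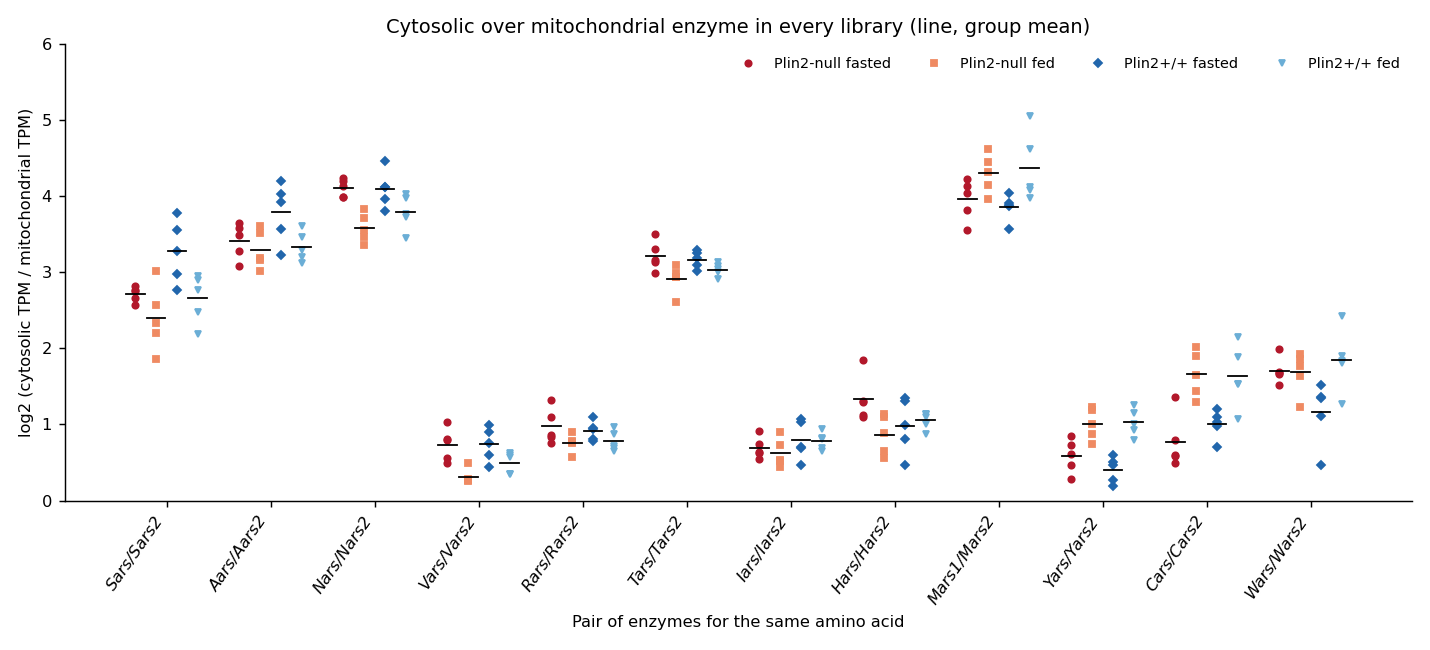
log2 ratio of cytosolic to mitochondrial TPM for 12 pairs of enzymes for the same amino acid, in each of the 20 libraries, with a line at each group mean. For Nars/Nars2 the fasted libraries of Plin2-null liver lie above the fed ones, and for Yars/Yars2 and Cars/Cars2 the fasted means lie below.

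Loss of Plin2 gave no called synthetase. In fasted liver 0 of 33 were called by edgeR in Plin2-null against Plin2+/+ mice, where 3.24% of all genes were, and 4 had an unadjusted p under 0.05, where 24.3% of all genes had. DESeq2 also called 0 of 33, against 9.39% of the genes it tested, and no synthetase separated the genotypes in every library (background 1.87% higher and 2.21% lower). Aars2 had the smallest p, with the 5 fasted Plin2-null libraries at 8.32 to 10.1 CPM and the 5 Plin2+/+ ones at 4.97 to 9.71 CPM. Its log2 fold change of 0.51 ± 0.17 had an unadjusted p of 0.00626 and an adjusted p of 0.0823. It was called (0.68, adjusted p = 0.0135) without Plin2+/+ fasted replicate 5, and was 0.15 (adjusted p = 0.346) once the GC trend was removed. The other unadjusted p-values under 0.05 belonged to Hars2 (−0.25 ± 0.11), Sars2 (0.51 ± 0.24) and Cars2 (0.36 ± 0.17). Of the cytosolic genes Wars had the smallest, with 9.35 to 11.5 CPM in fasted Plin2-null and 6.94 to 11.7 CPM in fasted Plin2+/+ liver (0.30 ± 0.16, unadjusted p = 0.073, adjusted p = 0.249).

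In fed liver 0 of 33 were called by edgeR or DESeq2, where edgeR called 0.0184% and DESeq2 0.0198% of their genes, and 1 had an unadjusted p under 0.05, where 4.25% of all genes had. No synthetase separated the fed genotypes in every library (background 0.423% higher and 0.454% lower). That gene was Iars, the isoleucine enzyme, at 54.7, 42.6, 39.3, 41.7 and 53.9 CPM in Plin2-null and 64.5, 53.8, 48.0, 54.8 and 53.4 CPM in Plin2+/+ liver. The groups overlapped, and the value of −0.24 ± 0.11 had an unadjusted p of 0.0325 and an adjusted p of 1. The fasted libraries of Iars held 53.4, 52.6, 57.6, 53.0 and 51.2 CPM in Plin2-null and 58.9, 64.2, 71.0, 52.2 and 60.7 CPM in Plin2+/+ liver. Of the mitochondrial genes Tars2, the threonine enzyme, came closest, at 24.8, 23.8, 20.6, 17.8 and 24.5 CPM in fed Plin2-null and 20.3, 21.7, 17.7, 19.2 and 21.7 CPM in fed Plin2+/+ liver (0.15 ± 0.12, unadjusted p = 0.219). The cytosolic median was −0.12 and the mitochondrial −0.01, beside 0.00 over all genes. With library size alone these were −0.04, 0.07 and 0.09, so the sign of the mitochondrial median turns with the scaling.

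The difference between the genotypes in their fasting responses, tested as an interaction, also called 0 of 33, against 0.0% of all genes, and DESeq2 called 0 of 33 against 0.414% of its genes. An unadjusted p under 0.05 was reached by 13.8% of all genes and by 1 synthetase, Wars, at 0.46 ± 0.22 (unadjusted p = 0.0497, adjusted p = 0.362). Of the mitochondrial genes Hars2 came closest, at −0.30 ± 0.15 (unadjusted p = 0.0584, adjusted p = 0.375). Genes called in 1 genotype and not in the other, such as Wars, Aars2, Sars and Lars, are therefore not shown to respond differently. The 2 fasting comparisons use separate libraries but share 1 estimate of the spread.

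Genes that work beside the synthetases were counted in the same fits, against the same backgrounds of 18.0% to 21.7% of all genes in each direction. Counts with library size alone have another background. Of 16312 genes it called 1376 higher and 4243 lower in Plin2-null liver, and 1854 higher and 4173 lower in Plin2+/+ liver. Rises were thus called less often over all genes too. Pairs of values in parentheses are log2 fold changes in Plin2-null and then in Plin2+/+ liver. Of 9 cytosolic elongation and release factors, 6 rose in fasted Plin2-null and 5 in fasted Plin2+/+ liver and none fell, but with library size alone 2 and 1 of these rises were called. Among them were the exchange-factor subunit Eef1d (0.62 and 0.37), the release factor Etf1 (0.49 and 0.66) and the recycling factor Abce1 (0.41 and 0.44). Of 11 mitochondrial translation factors 3 rose in Plin2-null and 6 in Plin2+/+ liver and none fell, of which 1 and 1 were kept with library size alone. Under that scaling 1 was also called lower in each genotype, Mtfmt (−0.57) in Plin2-null and Tsfm (−0.56) in Plin2+/+ liver. The rises were led by the elongation factor Gfm1 (0.55 and 0.67), with Mtif3 (0.43 and 0.44), an initiation factor, and Mrrf (0.26 and 0.42), the recycling factor. Of 13 tRNA maturation genes 6 rose and 0 fell in Plin2-null liver, and 7 rose and 2 fell in Plin2+/+ liver, with 2 and 1 of the rises kept under library size alone, where 1 was called lower in Plin2-null and 2 in Plin2+/+ liver. The list included the tRNA exporter Xpot (0.56 and 0.42), the tRNA methyltransferase Trmt1 (0.62 and 0.47) and the 3′ end nuclease Elac2 (0.47 and 0.34). The subunits of the amidotransferase that makes mitochondrial glutaminyl-tRNA, which has no synthetase of its own, gave 0 calls of 3 in both genotypes. Farsb rose in both genotypes (0.36 and 0.39), Tarsl2 passed in Plin2+/+ liver alone (0.26 and 0.43), and Farsa passed in neither (0.19 and −0.04); with library size alone none of the 3 was called.

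Genes of the amino acid response moved in both directions. Of 24 tested genes of that list 8 rose and 1 fell in Plin2-null liver (median 0.53), and 8 rose and 6 fell in Plin2+/+ liver (median −0.06). With library size alone 7 were called higher and 2 lower in Plin2-null liver, and 6 higher and 7 lower in Plin2+/+ liver. Atf4 itself had a value of −0.21 ± 0.14 in Plin2-null liver (adjusted p = 0.266) and fell by 0.43 ± 0.14 in Plin2+/+ liver (adjusted p = 0.0192). With library size alone Atf4 was called lower in both (−0.42, adjusted p = 0.0437, in Plin2-null and −0.61, adjusted p = 0.00421, in Plin2+/+ liver). Fgf21, a fasting hormone of the liver (4.77 and 3.68), and Sesn2, a leucine sensor upstream of mTORC1 (1.37 and 1.36), rose in both genotypes, while the amino acid transporter Slc7a5 fell (−0.81 and −1.22). Asns, the asparagine synthetase, passed in neither (0.41 and −0.23). Of 9 genes of the eIF2 kinases and phosphatase, 4 rose and 2 fell in each genotype. The kinase Eif2ak1 (0.34 and 0.52) and the phosphatase subunit Ppp1r15a (0.88 and 0.60) were higher, each called in 1 genotype under library size alone, and the kinases Eif2ak2 (−0.61 and −0.64) and Eif2ak3 (−0.54 and −0.86) lower, while Gcn2 (Eif2ak4), which senses uncharged tRNA, passed in neither (−0.15 and −0.16). Of 19 mTORC1 regulators 8 rose and 4 fell in Plin2-null and 7 rose and 3 fell in Plin2+/+ liver. Library size alone gave 5 higher and 5 lower, and 5 higher and 3 lower. Of 9 tested genes of MYC and its partners 2 rose and 4 fell in Plin2-null liver, and 4 rose and 4 fell in Plin2+/+ liver. Library size alone gave 1 higher and 4 lower, and 2 higher and 4 lower. Of 16 ER chaperones and related genes 10 fell in Plin2-null and 13 in Plin2+/+ liver and none rose, with Pdia6, a disulfide isomerase, at −1.52 and −1.77.

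Several synthetase genes share their start region with a neighbour. Protein-coding genes of GENCODE M21 on GRCm38 were searched for a start on the opposite strand within 1000 bases on either side. Such a neighbour stood by 5 of 15 mitochondrial synthetases (33.3%) and 4 of 18 cytosolic ones (22.2%), against 15.3% of 13296 protein-coding genes tested. Hars and Hars2, which count as each other's neighbour in both shares, overlap at their starts, which lie 197 bases apart on opposite strands. The other neighbours of mitochondrial genes were Ubfd1 for Ears2 (88 bases), Lyrm4 for Fars2 (114 bases), Orc3 for Rars2 (13 bases) and Mrps12 for Sars2 (172 bases). Those of cytosolic genes were Terf2ip for Kars (75 bases), Wdr25 for Wars (543 bases) and S100pbp for Yars (33 bases). The spans of 17 synthetases overlap another annotated gene, 6 of them on the same strand, Mars1 overlapping the stress gene Ddit3 on the other strand. No source used here states whether the counting used strand, so reads from such overlaps cannot be told apart.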

How the data were processed

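Per the labels' protocols, column-purified liver RNA went into mRNA libraries that keep strand. HISAT2 1.2.1 and featureCounts 1.4.6-p1 are named in the submitters' processing notes, which list GRCh38 although the identifiers are mouse; no source used here gives the annotation or whether counting used strand. The authors deposited raw counts per gene (55487 rows) and TPM values (55493 rows), whose header stands 1 cell to the left of the values. Over 7109 genes checked, counts over TPM were a constant of the gene once 1 factor per library was taken out.

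Counts were filtered with filterByExpr, scaled by TMM and fitted in edgeR 4.0.16 by its robust quasi-likelihood method, with all 20 libraries in 1 fit and a coefficient for each of the 4 groups. P-values were adjusted by the Benjamini-Hochberg method over 16312 genes, two-sided. Log2 fold changes have standard errors; levels between genes use TPM. Of the 34 genes the rule gives, 1 is not reported here. The other 33 passed the filter, of which 32 were matched to identifiers by symbol and Mars1 through RefSeq synonyms.

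Other settings were DESeq2 1.42.0, limma 3.58.1 (voom, and log2(TPM + 1) or log2(TPM + 0.1) with at least 0.5 TPM in 5 libraries, 16010 genes), RLE factors, library size alone, no filter, a filter at 50 counts and 1 CPM, the compared groups alone, removal of each library's GC trend, the share of counts in Lars2 (0.52% to 2.29%) as a covariate, and leaving out each library. Library size alone was also applied to the related gene lists, a choice made after seeing the data. In the covariate, Gm42418 and AY036118 were not analysed here.

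The fits were tested on simulated data for the fasting comparison in Plin2+/+ liver, where small changes were recovered less often than large ones. Precision is limited by counting and by 5 libraries a group.

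The members, gene lists and tests were chosen with earlier results of these data known, so no list is independent evidence. Named genes were, for each class and comparison, up to 4 called in each direction with the smallest adjusted p, or the smallest unadjusted p where none was called, and the highest and lowest in level; from each related list, up to 4 called members. Promoter sequences are from RefSeq, GRCm38.p6. Figures were drawn with matplotlib 3.10.9.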

Additional observations from a re-analysis of the deposited data

Results flagged for a closer look

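In 8 of 132 sets of 5 libraries (33 genes in 4 groups) the highest or lowest library stood far from the other 4, its gap to the nearest exceeding 0.71 of the group's range. Chance flags about 1 set in 20, and this number is near that. The sets share the same 20 libraries and are not independent. In Plin2-null fasted liver Ears2 was lowest in replicate 5 (7.66 CPM, the others 9.43 to 9.72), and Hars was highest in replicate 3 (38.7 CPM, the others 28.2 to 30.3). In Plin2-null fed liver Iars2 was highest in replicate 5 (54.9 CPM, the others 48.7 to 49.5), and Nars2 was lowest in replicate 1 (13.4 CPM, the others 14.2 to 14.5). In Plin2+/+ fasted liver Hars was lowest in replicate 1 (23.6 CPM, the others 29.2 to 31.1). In Plin2+/+ fed liver Cars was highest in replicate 5 (37.2 CPM, the others 25.1 to 28.5). Replicate 1 of that group was highest for Hars2 (29.6 CPM, the others 24.7 to 25.2) and for Rars (39.8 CPM, the others 28.2 to 31.2). Without those libraries the fall of Cars in Plin2+/+ liver and that of Nars2 in Plin2-null liver remained called. The rule takes 1 gene at a time and does not flag a library that departs across many genes. Plin2-null fasted replicate 3 had the lowest sum of all libraries for both classes (386.5 cytosolic and 63.33 mitochondrial TPM). In CPM it was the highest of its group for Aars, Dars, Eprs, Gars, Iars, Kars, Lars, Mars1 and Nars, among others. For Hars2 and Cars2 it was the lowest.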

How the results depend on the processing

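Of 18 single calls, no direction was reversed under any setting. The 7 falls held in nearly all of the 11 other settings, the exception being Nars2 in Plin2+/+ liver without a filter (adjusted p = 0.0615) and with the 2 groups alone (adjusted p = 0.0819). The 11 rises depended on scaling. All of them were kept with the GC trend removed, where Sars was also called higher in Plin2+/+ liver (0.36, adjusted p = 0.00178). Eprs (0.28, adjusted p = 0.0421) and Qars (0.19, adjusted p = 0.0422) were then also called higher in Plin2-null liver. The number called higher in Plin2-null liver (5) was 0 with library size alone and 0 by limma on log2(TPM + 1) or log2(TPM + 0.1), and 3 without a filter and 3 with the Lars2 share as a covariate; the number lower (3) was 5 with library size alone and 6 on both TPM scales. In Plin2+/+ liver the number higher (6) was 0 with library size alone and 0 on both TPM scales, and the number lower (4) was 7 with library size alone. On the TPM scales all genes shifted too, with medians of −0.20 and −0.28 in Plin2-null and −0.10 and −0.15 in Plin2+/+ liver for pseudocounts of 1 and 0.1.

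Leaving out 1 library gave 3 to 6 higher and 2 to 3 lower in Plin2-null liver (3 higher without fasted replicate 3), and 3 to 7 higher and 3 to 5 lower in Plin2+/+ liver (3 higher without fed replicate 3 or 5 or fasted replicate 2 or 3). For the genotype in fasted liver it gave 0 to 1 higher, the call being Aars2 without Plin2+/+ fasted replicate 5. Of 180 single calls tested in this way 147 were kept, as were 152 of 198 under the other settings. No paired analysis was possible because no label ties libraries of different groups together. The lowest count of a synthetase in a library was 61; counting error is part of the spread between libraries and weighs most in genes of low count.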
